A study of Homo sapiens with 6 samples.

Results

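The 40 genes described here encode the enzymes and subunits that make, transfer and trim the N-linked glycan of the endoplasmic reticulum (ER). They were listed by their function in the pathway, with earlier results of these data known. All 40 were found by symbol among the 24960 genes of the deposited count table. K562, an established chronic myeloid leukemia (CML) cell line that grows in suspension and carries the BCR-ABL fusion, was sequenced in 6 RNA libraries. There were 3 control libraries and 3 libraries from cells treated with hyperoside, a quercetin galactoside, at the 2 mM that the study's text gives. The labels give the tissue of every library as bone and its disease state as leukemia, and the time between treatment and RNA extraction is not given in the sources used here. The labels name no genetic change in any library. The labels do not say whether libraries of a group came from separate cultures, so p-values measure the spread between these libraries, which may be technical.

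N-glycosylation starts in the cytosol, where sugars are activated as UDP-N-acetylglucosamine, GDP-mannose and dolichol-linked mannose and glucose. ALG enzymes build an oligosaccharide on dolichol, first on the cytosolic and then on the luminal face of the ER membrane. Oligosaccharyltransferase moves it as a block onto asparagine residues of proteins entering the ER. Glucosidases then remove its glucoses, a reglucosylating enzyme puts one back on misfolded proteins, and a mannosidase marks proteins for removal.

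The libraries held between 35613283 and 36754725 counts on genes. Counts were scaled to library size (CPM) with edgeR's TMM factors, which ran from 0.957 to 1.03, and 15095 genes with enough counts were compared between the groups with edgeR's quasi-likelihood test. A gene is said to be lower or higher where its p, adjusted by the Benjamini-Hochberg method over those 15095 genes, was under 0.05, and each log2 fold change is hyperoside against control with its standard error (SE). All 40 glycosylation genes passed the filter on low counts, and their control means ran from 1.19 CPM for ALG14 to 563.9 CPM for GANAB. Pairs of libraries of a group differed by 6.56 to 24.9 chi-square units per degree of freedom, so none was a copy of another. The erythroid genes GATA1, TAL1, KLF1, HBG1, HBG2 and HBE1, which mark K562, were all expressed. The globin genes HBG1, HBG2 and HBE1 were lower in the hyperoside group, KLF1 was higher, and GATA1 and TAL1 did not pass the test. The fetal globin gene HBG1 stood at 567, 405 and 411 CPM in the control libraries and at 249, 274 and 233 CPM in the hyperoside libraries. Of 6 markers of lymphoid cells and fibroblasts in the table, MS4A1 was at 0 in all but 1 library and 5 were tested, with 1 lower and 2 higher. Their summed level was 37.1 to 44.5 FPKM in the control libraries and 49.4 to 55.5 FPKM in the hyperoside libraries, and most of it was CD3D. The part of these differences in the results below was not tested. In RNA from a whole culture, less transcript per cell and fewer cells with the transcript cannot be told apart.

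Of the 40 glycosylation genes, 17 were lower in the hyperoside group (42.5% of them, against 23.2% of all tested genes) and 8 were higher (20%, against 22.1% of all tested genes). The other 15 did not pass the test. GFPT1 and DPM3 were lower by more than 2-fold, a size that 3.76% of all tested genes reached in that direction. None was higher by more than 2-fold, against 6.43% of all tested genes. The 3 control libraries were all above the 3 hyperoside libraries for 18 of the genes (against 27.3% of all tested genes) and all below them for 8 (against 27.1% of all tested genes). Over the 40 genes the log2 fold change had a median of -0.16, against 0.0032 over all tested genes. With limma on log2(FPKM + 1) of the deposited values these medians were -0.084 and 0.027. The length-scaled levels of the 40 genes, as deposited FPKM (counts divided by gene length and library total), summed to 1572, 1574 and 1555 in the control libraries. The sums were 1363, 1390 and 1399 in the hyperoside libraries. The hyperoside sum was 88.3% of the control sum, and the groups did not overlap. In edgeR fits that left out 1 library each, 15 to 19 of the genes were lower and 5 to 8 higher. Over all 15435 to 15570 genes tested in those fits, 2858 to 3618 were lower and 2700 to 3549 higher. The 5 were seen without control replicate 2, when ALG1, ALG6 and MPI no longer passed. In that fit 2888 of all 15570 tested genes were higher, against 3333 of 15095 with all libraries.

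**Figure D1:**
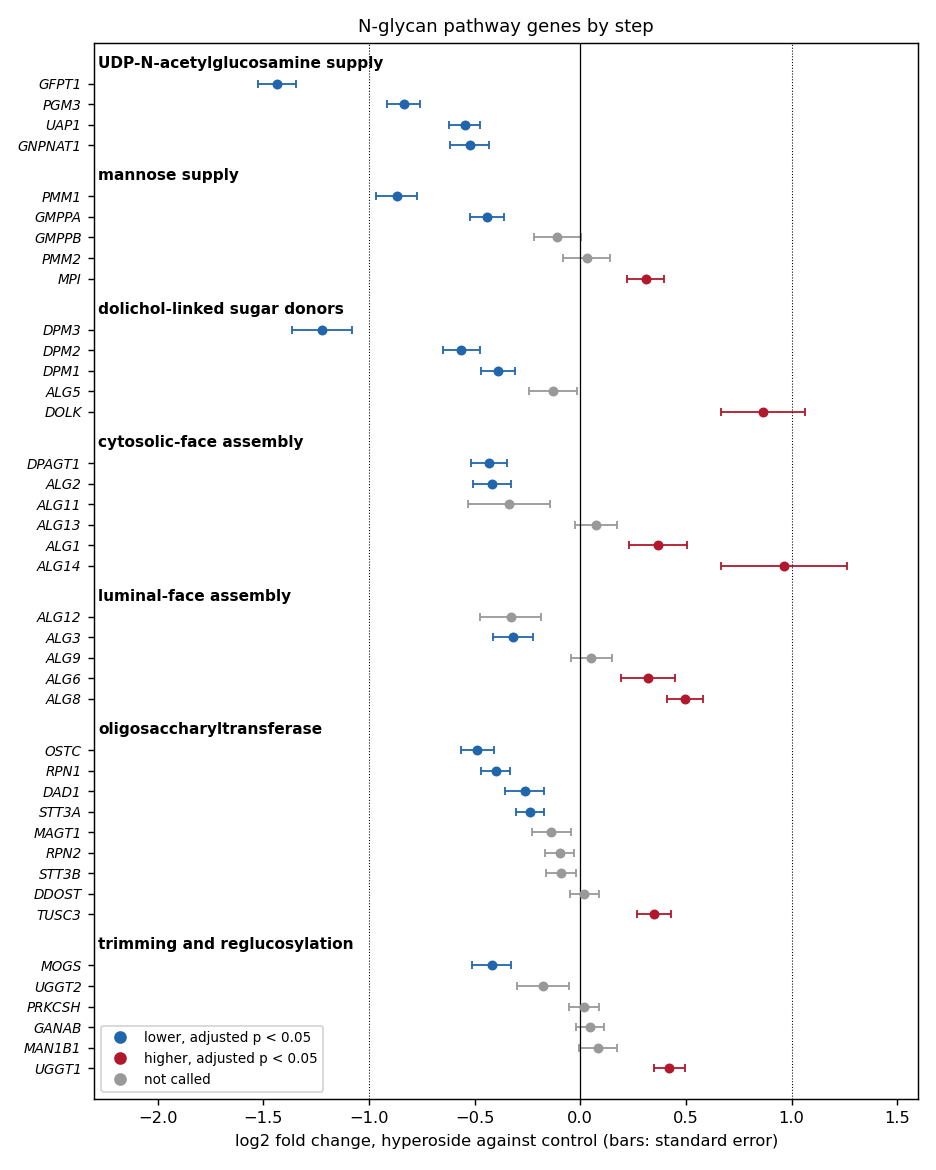
Log2 fold change of the 40 N-glycan genes between hyperoside and control (horizontal axis, with its standard error as a bar), grouped by step of the pathway from the top. Blue points are the 17 genes lower and red points the 8 genes higher at an edgeR adjusted p under 0.05, grey points the 15 not called, and the dotted lines mark a 2-fold difference, which GFPT1 (-1.44) and DPM3 (-1.22) exceed.

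The largest share of lower genes lay in the supply of UDP-N-acetylglucosamine, the donor of the glycan's core. All 4 genes of this step were lower, against 23.2% of all tested genes, and their median log2 fold change was -0.69. GFPT1 encodes the rate-limiting amidotransferase that turns fructose phosphate into glucosamine phosphate. It stood at 313, 371 and 409 CPM in control replicates 1, 2 and 3 and at 140.3, 126 and 138 CPM in hyperoside replicates 1, 2 and 3. Every control value lay far above every hyperoside value. Its hyperoside mean was 37.0% of the control mean, with a log2 fold change of -1.44 (SE 0.09, edgeR adjusted p = 1.38e-09).

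PGM3, the phosphomutase of the third reaction, had 147, 163 and 163 CPM in the control libraries against 93.3, 90.3 and 81.9 CPM in the hyperoside libraries. No library of one group reached the other, and the log2 fold change was -0.84 (SE 0.08, edgeR adjusted p = 1.47e-07). Exons of DOP1A, on the other strand, overlap 14.8% of the exonic bases of PGM3, and DOP1A had a log2 fold change of 0.31. UAP1 joins the sugar phosphate to UTP in the last reaction. Its control values of 224, 207 and 200.4 CPM all lay above its hyperoside values of 136, 154 and 142 CPM, a log2 fold change of -0.55 (SE 0.07, edgeR adjusted p = 1.13e-05). GNPNAT1, the acetyltransferase of the second reaction, fell to 69.6% of its control mean, from 45.9 ± 3.30 to 31.9 ± 2.33 CPM (SD, n = 3 libraries each). Its log2 fold change was -0.52 (SE 0.09, edgeR adjusted p = 1.84e-04), and 35.6% of its exonic bases lie opposite exons of AL139317.3. Per length, the 4 genes together summed to 119.8, 128.3 and 134.4 FPKM in the control libraries and to 74.1, 76.3 and 71.5 FPKM in the hyperoside libraries, or 58.0% of the control sum.

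Because GFPT1 was 1 of the 2 genes that exceeded a 2-fold difference, its promoter is shown. The gene lies on the minus strand of chr2:69319769-69387254 (GRCh38, GENCODE 29). The stretch below, chr2:69387255-69387374 in RefSeq GRCh38.p14, is read on the gene's strand and ends 28 bases upstream of the RefSeq start.
GFPT1 promoter: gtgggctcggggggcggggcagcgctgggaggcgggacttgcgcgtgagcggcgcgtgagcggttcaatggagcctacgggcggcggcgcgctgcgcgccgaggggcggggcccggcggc

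The genes that recycle or use N-acetylglucosamine outside this route were mixed. Of 7 such genes 6 were tested, 1 was lower and 2 were higher, with a median log2 fold change of -0.02. Those are 16.7% and 33.3%, against 23.2% lower and 22.1% higher of all tested genes. GNPDA1, a deaminase that turns glucosamine phosphate back into fructose phosphate, stood at 50.7, 53.2 and 49.2 CPM in the control and at 111, 103 and 116 CPM in the hyperoside libraries. The groups were far apart, and the log2 fold change was 1.11 (SE 0.08, edgeR adjusted p = 7.04e-09). AMDHD2, which removes the acetyl group from N-acetylglucosamine phosphate, was also higher, at 0.77 (SE 0.10, edgeR adjusted p = 5.27e-06). OGT, which places single N-acetylglucosamine residues on nuclear and cytosolic proteins, was lower, with 561.5, 665 and 647 CPM in the control and 375, 367 and 338 CPM in the hyperoside libraries. Its log2 fold change was -0.80 (SE 0.08, edgeR adjusted p = 2.05e-07), and OGA, which removes that residue, had -0.10 (SE 0.07, edgeR adjusted p = 0.29). GFPT2, the second gene of the GFPT1 reaction, had at most 11 counts in any library and was not tested.

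**Figure D2:**
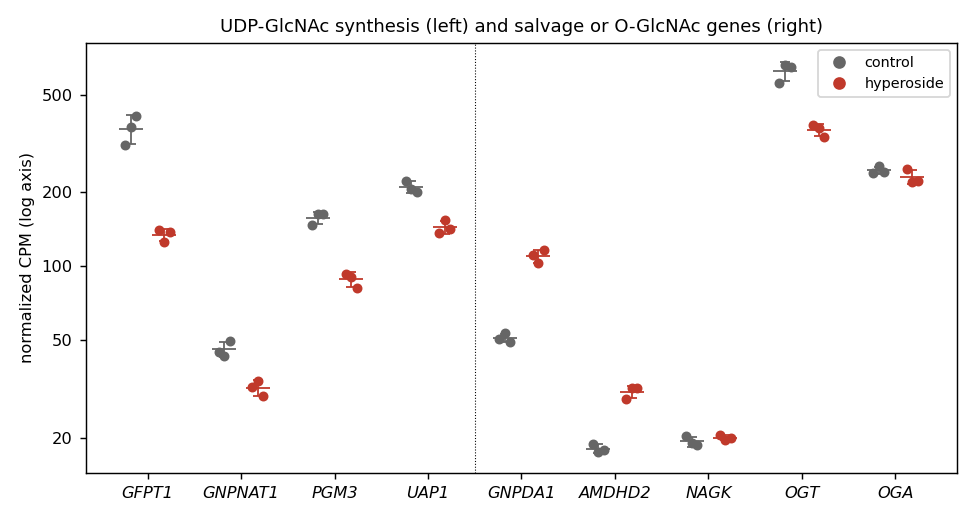
Normalized CPM (log axis) of the 4 UDP-N-acetylglucosamine synthesis genes, left of the dotted line, and of 5 salvage or O-GlcNAc genes, right of it, with a point per library and the mean with its SD over 3 libraries as a bar. Control points lie above hyperoside points for GFPT1, GNPNAT1, PGM3, UAP1 and OGT and below them for GNPDA1 and AMDHD2, while NAGK and OGA overlap.

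In the supply of mannose, 2 genes were lower, 1 was higher and 2 did not pass the test. Those are 40% lower and 20% higher, against 23.2% and 22.1% of all tested genes. PMM1 encodes one of the phosphomannomutases and was at 36.1, 33.9 and 33.5 CPM in the control libraries. It was at 17.5, 19.3 and 19.8 CPM in the hyperoside libraries, well apart from the control values, with a log2 fold change of -0.87 (SE 0.10, edgeR adjusted p = 1.18e-06). PMM2, the phosphomannomutase whose loss causes the most common congenital disorder of glycosylation, was at 16.6, 15.9 and 16.01 CPM against 14.6, 17.2 and 17.8 CPM. The groups overlapped, and its log2 fold change was 0.03 (SE 0.11, edgeR adjusted p = 0.851). Exons of other genes overlap 25.5% of the exonic bases of PMM2. Within each library, the log2 ratio of PMM2 to PMM1 in FPKM was -1.75, -1.72 and -1.69 in the control libraries and -0.90, -0.80 and -0.79 in the hyperoside libraries. PMM2 thus stayed below PMM1 in all 6 libraries, and the ratio moved by 0.89 (SE 0.04).

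GMPPA and GMPPB form the complex that makes GDP-mannose, GMPPB as the catalytic and GMPPA as the regulatory subunit. GMPPA had 92.1, 89.99 and 88.3 CPM in the control and 64.4, 62.3 and 72.3 CPM in the hyperoside libraries, without overlap, and a log2 fold change of -0.44 (SE 0.08, edgeR adjusted p = 2.11e-04). GMPPB, with 22.8, 21.8 and 22.8 CPM against 17.7, 23.3 and 21.5 CPM, overlapped between the groups and had a log2 fold change of -0.11 (SE 0.11, edgeR adjusted p = 0.45). The log2 FPKM ratio of GMPPB to GMPPA ran from -2.82, -2.85 and -2.77 in the control libraries to -2.68, -2.23 and -2.56 in the hyperoside libraries, a difference of 0.33 (SE 0.14) that was 0.20 without hyperoside replicate 2. GENCODE 29 places 54.1% of the exonic bases of GMPPB under exons of AMIGO3, on the same strand, or RNF123, and AMIGO3 had a log2 fold change of 1.40. MPI, which interconverts fructose phosphate and mannose phosphate, was higher. It had 57.2, 46.05 and 51.8 CPM in the control libraries and 65.6, 63.6 and 62.99 CPM in the hyperoside libraries, without overlap though the control values spread more widely than the gap between the groups. Its log2 fold change was 0.31 (SE 0.09, edgeR adjusted p = 0.00849), and without control replicate 2 the edgeR adjusted p was 0.0709. Exons of FAM219B, on the other strand, cover part of MPI (24.6% of its exonic bases overlap another gene), and FAM219B had a log2 fold change of -0.96.

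Among the genes of the dolichol-linked donors, 3 were lower, 1 was higher and ALG5 did not pass the test. Those are 60% lower and 20% higher, against 23.2% and 22.1% of all tested genes. DPM1, DPM2 and DPM3 are the subunits of dolichol-phosphate-mannose synthase, which feeds the luminal mannosyltransferases and also the synthesis of glycosylphosphatidylinositol (GPI) anchors. All 3 subunits were lower. DPM3, the small membrane subunit that holds the catalytic one, was at 17.9, 16.6 and 14.7 CPM in the control and at 5.83, 7.41 and 7.89 CPM in the hyperoside libraries. The highest hyperoside value lay well below the lowest control value, and the log2 fold change was -1.22 (SE 0.14, edgeR adjusted p = 2.00e-06). DPM2, the other membrane subunit, was at 103, 84.7 and 84.9 CPM against 58.5, 63.7 and 62.5 CPM, with a log2 fold change of -0.56 (SE 0.09, edgeR adjusted p = 5.26e-05). Exons of AL157935.1, on the other strand, overlap 19.2% of the exonic bases of DPM2. DPM1, the catalytic subunit, was at 65.2, 66.8 and 64.5 CPM against 47.95, 50.5 and 51.7 CPM, with -0.39 (SE 0.08, edgeR adjusted p = 6.31e-04). The groups did not overlap for any of the 3 subunits. In FPKM, a scale that allows levels of different genes to be compared, the control means were 63.5 ± 5.92 for DPM2, 53.4 ± 1.52 for DPM1 and 26.9 ± 2.06 for DPM3, and the hyperoside means were 44.5 ± 1.72, 42.2 ± 1.28 and 11.9 ± 1.74 (SD, n = 3 each).

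DOLK phosphorylates dolichol to form the lipid carrier, and it went the other way. It was a low gene, with 3.38, 4.89 and 4.87 CPM in the control libraries and 7.03, 10.1 and 6.81 CPM in the hyperoside libraries. All hyperoside values lay above all control values, and the log2 fold change was 0.86 (SE 0.20, edgeR adjusted p = 0.00177). ALG5, the synthase of dolichol-phosphate-glucose, had a log2 fold change of -0.13 (SE 0.11, edgeR adjusted p = 0.374). DPM3 was the other gene past a 2-fold difference and lies on the minus strand of chr1:155139891-155140595. The promoter stretch shown for it, chr1:155140596-155140715 in RefSeq GRCh38.p14, is read on the gene's strand and lies 184 to 65 bases upstream of the RefSeq start. The bases after that RefSeq start did not match a GENCODE 29 transcript of DPM3, so the stretch may not be the promoter of the transcript that was counted.
DPM3 promoter: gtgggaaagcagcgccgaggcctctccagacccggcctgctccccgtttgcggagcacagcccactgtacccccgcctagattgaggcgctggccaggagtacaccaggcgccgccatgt

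On the cytosolic face, 2 of 6 assembly genes were lower, 2 were higher and 2 did not pass the test. Those are 33.3% each way, against 23.2% lower and 22.1% higher of all tested genes. DPAGT1, the target of tunicamycin, starts the chain by placing N-acetylglucosamine phosphate on dolichol phosphate. It was at 80.00, 71.04 and 70.7 CPM in the control libraries and at 50.7, 57.5 and 56.01 CPM in the hyperoside libraries, with no overlap and a log2 fold change of -0.43 (SE 0.08, edgeR adjusted p = 4.58e-04). C2CD2L, whose exons lie opposite to those of DPAGT1 (21.3% of its exonic bases overlap), had a log2 fold change of -0.90. ALG2, a mannosyltransferase, was at 33.98, 37.0 and 35.7 CPM against 26.7, 25.9 and 27.2 CPM. All its hyperoside values lay below its control values, with a log2 fold change of -0.42 (SE 0.09, edgeR adjusted p = 9.62e-04).

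ALG13 and ALG14 together add the second N-acetylglucosamine, ALG13 as the catalytic part and ALG14 as its membrane anchor. ALG14 had the lowest level of the 40 genes, with counts of 38, 48 and 40 in the control and 88, 84 and 82 in the hyperoside libraries. Those counts correspond to 1.08, 1.36 and 1.12 CPM and 2.40, 2.29 and 2.27 CPM, which did not overlap, and the log2 fold change was 0.96 (SE 0.30, edgeR adjusted p = 0.0134). ALG13 was at a log2 fold change of 0.07 (SE 0.10, edgeR adjusted p = 0.575). ALG1, which adds the first mannose, was at 8.93, 8.66 and 8.42 CPM in the control and at 10.1, 11.1 and 12.4 CPM in the hyperoside libraries. The gap between its groups was narrow, the log2 fold change was 0.37 (SE 0.14, edgeR adjusted p = 0.0342), and it missed the threshold in 5 of 13 alternative analyses. ALG1 has many near-copies of the ALG1L family, and exons of NAGPA and EEF2KMT cover part of it (42.3% of its exonic bases overlap another gene), so reads may be shared. NAGPA had a log2 fold change of 1.12 and EEF2KMT of -0.01. ALG11, the mannosyltransferase that completes the cytosolic stage and shares 39.7% of its exonic bases with UTP14C, had a log2 fold change of -0.34 (SE 0.19, edgeR adjusted p = 0.164).

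The luminal face held 1 lower gene, 2 higher genes and 2 that did not pass the test, and its median log2 fold change was 0.05. Those are 20% lower and 40% higher, against 23.2% and 22.1% of all tested genes. ALG6 and ALG8 transfer the first and the next glucose. ALG8 was at 31.4, 31.6 and 30.8 CPM in the control libraries and at 41.7, 45.3 and 45.2 CPM in the hyperoside libraries. The control libraries were nearly equal and all lay below the hyperoside libraries, with a log2 fold change of 0.50 (SE 0.09, edgeR adjusted p = 1.54e-04). ALG6 was at 12.3, 11.1 and 11.7 CPM against 16.4, 15.03 and 12.4 CPM, with its highest control value just under its lowest hyperoside value. Its log2 fold change was 0.32 (SE 0.13, edgeR adjusted p = 0.0499), and it missed the threshold in 9 of 13 alternative analyses.

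None of the luminal mannosyltransferases ALG3, ALG9 and ALG12 was called higher. ALG3 was at 57.02, 47.6 and 49.3 CPM against 37.6, 43.5 and 42.4 CPM, without overlap, and had a log2 fold change of -0.32 (SE 0.09, edgeR adjusted p = 0.0105). ALG12 was at 11.03, 9.49 and 8.84 CPM against 7.74, 8.25 and 7.37 CPM. Its groups did not overlap either, but its log2 fold change of -0.33 (SE 0.14, edgeR adjusted p = 0.0704) did not pass. ALG9, of whose exonic bases 24.4% overlap another gene, had a log2 fold change of 0.05 (SE 0.10, edgeR adjusted p = 0.693). Exons of CRELD2, an ER stress gene on the other strand, cover part of ALG12 (42.1% of its exonic bases overlap another gene), and CRELD2 had a log2 fold change of -1.03.

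RefSeq promoter windows of 250 bases before to 50 bases after the start were found for 36 of the 40 genes and searched on both strands, with overlaps allowed, for motifs of ER stress and amino acid response factors. The ER stress response element, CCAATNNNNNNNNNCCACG, was in 0.0769% of 35116 windows and in 1 of the 36 genes with a window, ALG12. Its second form, ATTGGNCCACG, was in 0.0541% of windows, the unfolded protein response element TGACGTGG in 0.729% and the CHOP and ATF4 composite TGATGNAA in 3.62%, and none of these was in a window of the 40 genes. The shorter TGACGTG, which is contained in TGACGTGG, was in 1.97% of windows and in UAP1 alone among the genes. A match is a description of these letters, not of a bound site. Shares are per window, and a gene can have several windows, so the counts of genes cannot be held against them. The ALG12 window was chosen for its match after the search. It is chr22:49918524-49918634 in RefSeq GRCh38.p14, read on the gene's minus strand from 196 to 86 bases upstream of its start, and the element is in capitals, 134 to 116 bases upstream.
ALG12 promoter: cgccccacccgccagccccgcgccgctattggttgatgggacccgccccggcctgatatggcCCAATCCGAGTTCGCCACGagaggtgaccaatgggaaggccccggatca

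Oligosaccharyltransferase had the most transcript of any step. Its 9 subunit genes summed to 740.0, 761.7 and 745.3 FPKM in the control libraries and to 670.5, 674.5 and 679.9 FPKM in the hyperoside libraries. The hyperoside sum was 90.1% of the control sum, without overlap. Of the 9 genes, 4 were lower, 1 was higher and 4 did not pass the test. Those are 44.4% lower and 11.1% higher, against 23.2% and 22.1% of all tested genes. RPN1, a subunit shared by both forms of the complex, was at 269, 249.7 and 255 CPM in the control libraries and at 187, 196 and 203 CPM in the hyperoside libraries. The groups were far apart for their spread, with a log2 fold change of -0.40 (SE 0.07, edgeR adjusted p = 1.33e-04). The other shared subunits had smaller fold changes. DAD1, whose name stands for defender against cell death, had a log2 fold change of -0.26 (SE 0.09, edgeR adjusted p = 0.024) and missed the threshold in 6 of 13 alternative analyses. RPN2 had -0.10 (SE 0.07, edgeR adjusted p = 0.257) and DDOST 0.02 (SE 0.07, edgeR adjusted p = 0.853). Exons of PINK1-AS, on the same strand, overlap 15.7% of the exonic bases of DDOST.

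The complex occurs with either of the catalytic subunits STT3A and STT3B. The STT3A form sits at the translocon and the STT3B form acts on sites that the former has missed. STT3A was at 284, 275 and 271 CPM in the control and at 233, 242 and 228 CPM in the hyperoside libraries, which did not overlap, and its log2 fold change was -0.24 (SE 0.07, edgeR adjusted p = 0.00713). OSTC, a subunit of the STT3A form, was at 141, 162 and 163 CPM against 113, 105 and 114 CPM, again without overlap, with a log2 fold change of -0.49 (SE 0.08, edgeR adjusted p = 6.37e-05). KRTCAP2, the other subunit of the STT3A form and not among the 40, overlapped between the groups, with a log2 fold change of -0.03 (SE 0.08, edgeR adjusted p = 0.803). STT3B was at 283, 313 and 320.1 CPM against 282, 287 and 291 CPM. Its groups overlapped, with a log2 fold change of -0.09 (SE 0.07, edgeR adjusted p = 0.302). The log2 FPKM ratio of STT3A to STT3B was 0.46, 0.26 and 0.21 in the control libraries and 0.17, 0.20 and 0.09 in the hyperoside libraries. The ratio moved by -0.15 (SE 0.08), and by -0.08 without control replicate 1.

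TUSC3 and MAGT1 are alternative oxidoreductase subunits of the STT3B form. TUSC3 was the only subunit gene that was higher among the 9, at 100.2, 120 and 115 CPM in the control and 151, 136 and 141 CPM in the hyperoside libraries. All control values lay below all hyperoside values, and the log2 fold change was 0.35 (SE 0.08, edgeR adjusted p = 0.00175). MAGT1 was at 60.4, 77.6 and 74.1 CPM against 63.5, 65.3 and 64.2 CPM, overlapping, with a log2 fold change of -0.14 (SE 0.09, edgeR adjusted p = 0.235). Without control replicate 1, its lowest control library, the edgeR adjusted p of MAGT1 was 0.00741. In deposited FPKM, MAGT1 was above TUSC3 in every control library, with 12.5, 16.5 and 16.02 FPKM against 9.54, 11.8 and 11.5 FPKM. In CPM, which are not divided by gene length, TUSC3 was above MAGT1 in every library. The order in FPKM thus depends on the gene lengths used. The deposited values imply 10057 bases for TUSC3 and 4639 for MAGT1, whereas GENCODE gives 5190 and 4862 exonic bases. In FPKM the genes were level in the hyperoside libraries, at 14.02, 14.3 and 13.9 for MAGT1 and 15.4, 13.7 and 14.1 for TUSC3. Their log2 ratio went from 0.45 ± 0.06 to -0.03 ± 0.10 (SD, n = 3 each), a difference of -0.48 (SE 0.07).

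**Figure D3:**
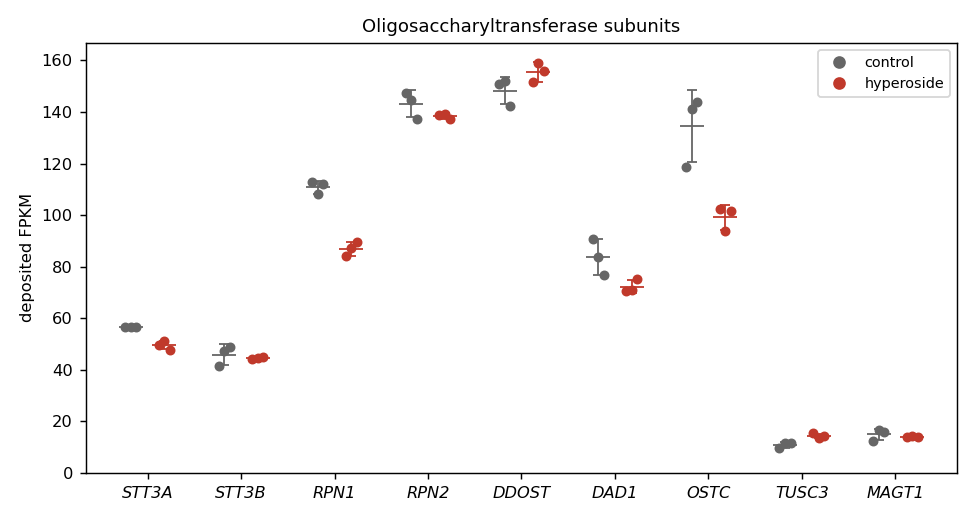
Deposited FPKM of the 9 oligosaccharyltransferase subunit genes, with a point per library and the mean with its SD over 3 libraries as a bar, on an axis from 0. STT3A, RPN1, DAD1 and OSTC have all hyperoside points below the control points, TUSC3 has them above, and STT3B, RPN2, DDOST and MAGT1 overlap on this scale, where TUSC3 and MAGT1 are the lowest of the 9.

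Trimming and reglucosylation had the fewest called genes for its size, with 1 of 6 lower, 1 higher and 4 that did not pass the test. Those are 16.7% each way, near the 23.2% lower and 22.1% higher of all tested genes for so few genes. MOGS, glucosidase I, removes the outermost glucose. It was at 84.4, 67.8 and 68.4 CPM in the control libraries and at 54.9, 55.4 and 54.6 CPM in the hyperoside libraries. The hyperoside libraries were nearly equal and lay below all controls, with a log2 fold change of -0.42 (SE 0.09, edgeR adjusted p = 0.00106). GANAB and PRKCSH, the catalytic and regulatory subunits of glucosidase II, had the highest FPKM of the step and log2 fold changes of 0.05 (SE 0.06, edgeR adjusted p = 0.589) and 0.02 (SE 0.07, edgeR adjusted p = 0.874).

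UGGT1, the sensor that puts a glucose back on misfolded glycoproteins, was higher. Its control values of 115, 109.8 and 108 CPM all lay below its hyperoside values of 143, 159 and 144 CPM, with a log2 fold change of 0.42 (SE 0.07, edgeR adjusted p = 1.49e-04). Its relative UGGT2 was at 18.4, 24.4 and 25.5 CPM against 21.03, 21.2 and 18.2 CPM, which overlapped, with a log2 fold change of -0.18 (SE 0.12, edgeR adjusted p = 0.254). Without control replicate 1, the lowest control library, UGGT2 had an edgeR adjusted p of 0.0172 and a log2 fold change of -0.31. The log2 FPKM ratio of UGGT1 to UGGT2 was 1.69, 1.22 and 1.14 in the control libraries and 1.82, 1.96 and 2.04 in the hyperoside libraries, a difference of 0.59 (SE 0.18). MAN1B1, the ER mannosidase, had a log2 fold change of 0.08 (SE 0.09, edgeR adjusted p = 0.473). As summed FPKM the step stood at 104.5% of its control level, and the luminal assembly step at 104.2%, and the groups overlapped for both. FPKM are scaled to library totals without the TMM factors. With library totals in place of TMM, the median log2 fold change of all tested genes was 0.053, against 0.0032. The remaining steps stood below their control levels, at 79.9% for mannose supply, 72.8% for the dolichol-linked donors and 81.0% for cytosolic assembly.

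For each of the 5 gene pairs named above, the ratios of the control and hyperoside libraries did not overlap. A two-sided exact permutation test over the 20 ways to divide the libraries gave p = 0.1 for each of the 5 pairs, also after Benjamini-Hochberg adjustment, and 3 libraries against 3 cannot give a smaller p. The differences are therefore given as sizes with their errors. PMM2 to PMM1 had the largest difference for its standard error and STT3A to STT3B the smallest.

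**Figure D4:**
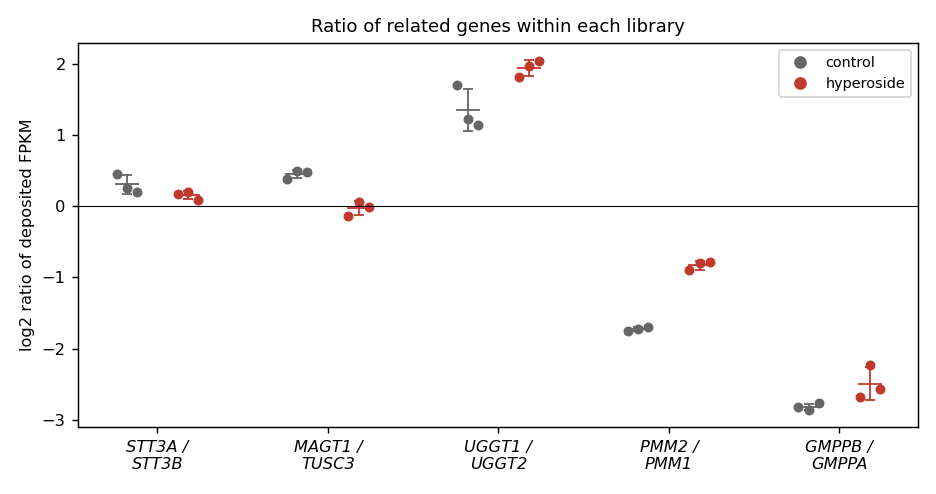
Log2 ratio of the deposited FPKM values of 5 pairs of related genes within each library (vertical axis), with a point per library and the mean with its SD over 3 libraries as a bar. The ratio was higher in all hyperoside libraries for UGGT1 to UGGT2, PMM2 to PMM1 and GMPPB to GMPPA and lower in all of them for STT3A to STT3B and MAGT1 to TUSC3. The last of these moves to about 0, a level that depends on the gene lengths used.

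Genes of the same pathway that are not among the 40 were mixed. Of 11 other early genes, 2 were lower and 3 higher (18.2% and 27.3%, against 23.2% and 22.1% of all tested genes). Their median log2 fold change was -0.03. NUS1, a subunit of the prenyltransferase that makes the dolichol chain, was lower, at -0.73 (SE 0.08, edgeR adjusted p = 1.68e-06), whereas DHDDS, its catalytic partner, was higher, at 0.28 (SE 0.10, edgeR adjusted p = 0.0291). SRD5A3, which acts late in dolichol synthesis, rose from 14.3, 12.1 and 13.7 CPM in the control to 23.9, 26.1 and 24.03 CPM in the hyperoside libraries, with a log2 fold change of 0.89 (SE 0.11, edgeR adjusted p = 3.41e-06). MPDU1, needed for use of the dolichol-linked donors, was higher, at 0.28 (SE 0.09, edgeR adjusted p = 0.0221). OST4, a small oligosaccharyltransferase subunit, was lower, at -0.28 (SE 0.08, edgeR adjusted p = 0.00741). The last glucosyltransferases, ALG10 and ALG10B, were not called, at -0.21 (SE 0.15, edgeR adjusted p = 0.271) and 0.07 (SE 0.18, edgeR adjusted p = 0.784).

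Of 9 genes of the lectins and enzymes that read or remove the trimmed glycan, 3 were lower and 1 was higher. Those are 33.3% and 11.1%, against 23.2% and 22.1% of all tested genes. CALR, the soluble lectin chaperone calreticulin, was at 2675, 2387 and 2203 CPM in the control libraries and 881, 868 and 931 CPM in the hyperoside libraries. It was the gene of this list with the largest change, at -1.44 (SE 0.07, edgeR adjusted p = 1.32e-10), and its membrane-bound relative CANX had -0.08 (SE 0.07, edgeR adjusted p = 0.343). Of the 9 genes 5 did not pass the test, and the median log2 fold change of the list was -0.08. The summed FPKM of the 9 genes went from 1627 to 856.4, of which CALR alone made up 1250 in the control and 477.7 in the hyperoside group. ENGASE, which cuts free glycans in the cytosol, and ERLEC1, a lectin of ER-associated degradation, were also lower, at -0.77 (SE 0.09, edgeR adjusted p = 1.70e-06) and -0.63 (SE 0.09, edgeR adjusted p = 1.28e-05). NGLY1, which strips the glycan from retrotranslocated proteins, was higher, at 0.18 (SE 0.07, edgeR adjusted p = 0.0494).

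In the Golgi, 6 of 16 tested N-glycan processing genes were lower and 6 were higher, with a median log2 fold change of 0.0025. Of all tested genes 23.2% were lower and 22.1% higher. The shares were 37.5% each way here and 30% each way for the GPI anchor genes below. For the mucin-type genes below they were 25% lower and 33.3% higher. MGAT5 and MGAT2, which add branches, were higher, at 0.98 (SE 0.10, edgeR adjusted p = 3.68e-07) and 0.55 (SE 0.10, edgeR adjusted p = 1.35e-04). SLC35A2, the UDP-galactose transporter, and the sialyltransferase gene ST3GAL4 were lower, at -0.88 (SE 0.10, edgeR adjusted p = 1.12e-06) and -0.71 (SE 0.10, edgeR adjusted p = 1.22e-05). MGAT4A, also a branching enzyme, was a low gene with 2.96, 2.47 and 2.10 CPM in the control and at most 0.52 CPM in any hyperoside library, and its log2 fold change was -2.84 (SE 0.52, edgeR adjusted p = 2.29e-04). Among GPI anchor genes, which share the DPM1, DPM2 and DPM3 product, 6 of 20 were lower and 6 higher, with PIGH at -0.83 (SE 0.11, edgeR adjusted p = 5.69e-06) and PIGO at 0.87 (SE 0.13, edgeR adjusted p = 2.42e-05). Among mucin-type O-glycan genes, which do not use the dolichol route, 3 of 12 tested were lower and 4 higher, with a median of 0.16. GALNT7 and GALNT1 were higher, at 0.64 (SE 0.10, edgeR adjusted p = 4.39e-05) and 0.50 (SE 0.09, edgeR adjusted p = 1.38e-04). GCNT1 was also higher, at 1.05 (SE 0.18, edgeR adjusted p = 1.59e-04), and ST6GALNAC1 was lower, at -0.66 (SE 0.10, edgeR adjusted p = 4.47e-05). No test compared these lists with the 40 genes.

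**Figure D5:**
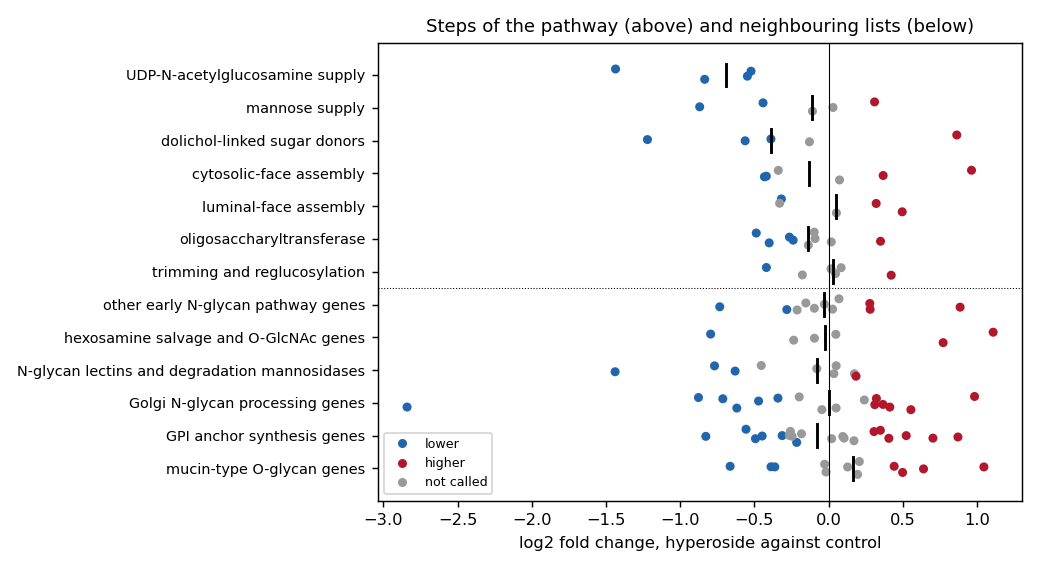
Log2 fold change (horizontal axis) of each tested gene in the 7 steps of the N-glycan pathway, above the dotted line, and in 6 neighbouring lists, below it, with a vertical bar at each median. Blue and red points are lower and higher at an edgeR adjusted p under 0.05 and grey points are not called. Medians run from -0.69 for UDP-N-acetylglucosamine supply to 0.16 for the mucin-type O-glycan genes, and the point farthest to the left is MGAT4A (-2.84).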

How the data were processed

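The authors deposited raw counts per gene and FPKM values, which scale those counts to gene length and library total. Per the submitters' processing notes, fastp, HISAT2, HTSeq and the build hg38 were used. Versions, annotation and strand setting are not given in the sources used here, so reads of genes that overlap on opposite strands may not be told apart. Columns of the deposited count and FPKM tables were matched to samples by the labels.

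The comparison used edgeR 4.0.16 (R 4.3.3), with filterByExpr at a minimum count of 10 and a minimum total of 15, TMM scaling, and glmQLFit and glmQLFTest on condition alone, with Benjamini-Hochberg adjustment over 15095 genes. The study names DESeq. Each SE was obtained from the log2 fold change and the F statistic of its test. Ratios of FPKM were compared by two-sided exact permutation tests. Alternatives used DESeq2 1.42.0, limma 3.58.1 on log2(FPKM + 1) or log2(FPKM + 0.1), library totals or DESeq2 size factors, no filter, the replicate number as a block, and fits without each library in turn. Tables and plots were made in Python 3.11.15 with pandas 2.3.3, numpy 2.4.6 and matplotlib 3.10.9.

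The members and lists were chosen with earlier results of these data known. In each step, values are given in every library for the 3 genes with the smallest adjusted p, for genes called higher and for those in a pair. From other lists up to 3 genes are named in the direction with more calls and up to 2 in the other. CANX, OGA, GFPT2, KRTCAP2, ALG10, ALG10B, the overlapping genes and the ALG12 promoter were added after values were seen. Positions are from GENCODE 29 (GRCh38) and promoters from RefSeq GRCh38.p14. PIGY and CDH5 were not used here, and 1 gene of the erythroid marker list is not reported here.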

Additional observations from a re-analysis of the deposited data

How the results depend on the processing

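Of the 40 N-glycan genes, 15 of the 17 called lower, 5 of the 8 called higher and 8 of the 15 not called kept direction and call in all 13 alternative analyses, and over the 40 genes and all alternatives 489 log2 fold changes did so, 22 lost a call, 3 gained one and 6 changed sign. The median log2 fold change of -0.16 became -0.084 with limma on log2(FPKM + 1) and -0.096 on log2(FPKM + 0.1). With library totals in place of TMM, 1 gene, ALG14, was higher by more than 2-fold. Without 1 library each, 15 to 19 genes were lower and 5 to 8 were higher. Over all tested genes those fits called 2858 to 3618 lower and 2700 to 3549 higher. In each fit 2 of the 40 genes were lower by more than 2-fold. From 0 to 1 were higher by more than 2-fold (ALG14, without control replicate 2), and the median of the 40 ran from -0.21 to -0.12. Uncalled genes near 0 changed sign in some of these fits, and their log2 fold changes ran from -0.039 (without control replicate 1) to 0.14 for ALG9, from -0.029 (without control replicate 3) to 0.053 for DDOST, from -0.026 (without control replicate 3) to 0.065 for PRKCSH, which was also negative at -0.018 without hyperoside replicate 3, and from -0.015 (without hyperoside replicate 3) to 0.11 for PMM2, which was -0.0013 without hyperoside replicate 2. ALG6 had adjusted p-values from 0.0187 to 0.227 and ALG1 from 0.0177 to 0.131 over the alternatives (edgeR, DESeq2 or limma), and MPI reached 0.0709 without control replicate 2 and ALG3 0.077 without hyperoside replicate 1. Without control replicate 1, ALG11 (edgeR adjusted p = 0.046), MAGT1 and UGGT2 were also called lower. The cause was not tested. Deviations of libraries with the same number correlated at -0.08, -0.03 and -0.03, so same-numbered libraries were not treated as pairs, and no library correlated best with its own number. With a replicate block 16 genes were lower and 6 higher, the median was -0.15, and 6129 of all genes were called against 6841. An exact sign-flip test of each pair ratio over the numbers gave p = 0.25, the smallest it allows.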

Other observations

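The KEGG pathway column of the deposited table lists 49 genes under N-glycan biosynthesis, of which 26 are among the 40 described above. This list was taken up after values had been seen. Of its 45 tested genes 15 were lower and 14 higher (33.3% and 31.1%, against 23.2% and 22.1% of all tested genes). Their median log2 fold change was -0.05. Of the 19 tested genes that are not among the 40, which are mainly of the Golgi and the late dolichol steps, 5 were lower and 8 higher (26.3% and 42.1%), with a median of 0.05. Their summed FPKM was 113.0% of the control sum, against 88.3% for the 40 genes. No test compared these lists.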
